A study of Mus musculus with 18 samples.

Results

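The genes described here are 10 genes that make prostaglandins and leukotrienes or bind them: Pla2g4a, Ptgs1, Ptgs2, Ptges, Alox5, Alox5ap, Lta4h, Ltb4r1, Ptger2 and Ptger4. They were chosen by name, as the rows of the deposited count table whose Ensembl ID maps to these mouse symbols, and the rule sets no threshold on a measured value. The choice was made with earlier results of these data known. All 10 were found among 53379 gene IDs, with 1 ID each, and all 10 were among the 11569 genes that passed the filter on low counts and were tested.

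Bulk RNA was sequenced from neutrophils that had been FACS-sorted out of the bone marrow of mice aged 10 weeks, either wild type (WT) or labelled CIS-/-. CIS is the cytokine-signalling inhibitor encoded by Cish, and GM-CSF is a growth factor of myeloid cells. For each genotype 3 libraries came from freshly sorted cells (unstimulated), 3 from cells kept for 4 h in medium with 100 ng/mL GM-CSF, and 3 from cells kept there for 24 h, which makes 18 libraries in 6 groups. The sources used here do not give the mouse strain, the deleted part of Cish, or whether replicates are separate mice. A p-value therefore reflects the spread among these 18 libraries alone, which may be technical.

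All GM-CSF groups had also been in culture, and there was no culture without GM-CSF, so the effects of GM-CSF and of time in culture cannot be told apart. Total counts ran from 12170524 to 22539858 per library. Cish itself was at 6.48 to 6.52 CPM in unstimulated WT libraries and 18.7 ± 1.1 CPM (SD, n = 3) in those labelled CIS-/-, where CPM is the read count scaled to a common depth with TMM normalisation. After 4 h it was at 1138 to 1155 against 237 to 243 CPM, and after 24 h at 1056 to 1069 against 233 to 243 CPM. Cish was thus lower in the libraries labelled CIS-/- after GM-CSF but higher before it. As the deleted part of Cish is not given, its counts cannot check the label, and the genotype is given as labelled throughout. All 9 measured neutrophil markers were present in every group, with summed levels of 105566 to 106706 CPM in unstimulated WT libraries and 25856 to 27223 CPM after 24 h. In bulk RNA, fewer cells of a type and less RNA per cell cannot be told apart.

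As background, eicosanoids are lipid signals made from arachidonic acid, which the cytosolic phospholipase A2 encoded by Pla2g4a releases from membranes. Cyclooxygenases (Ptgs1 and Ptgs2) turn it into prostaglandin H2, from which the microsomal synthase Ptges makes prostaglandin E2, read by the receptors Ptger2 and Ptger4. 5-lipoxygenase (Alox5), helped by its membrane partner Alox5ap, makes leukotriene A4, and Lta4h turns that into leukotriene B4, a strong attractant of neutrophils that acts through Ltb4r1. Neutrophils are a main source of leukotriene B4.

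Ptgs2 and Ptges are neighbouring steps of prostaglandin E2 synthesis and, as described below, moved together across the 6 groups, so the 250 bases before an annotated start of each are shown. They were read from RefSeq's promoter table for GRCm38.p6, the assembly of mm10, in which 9 of the 10 genes were found; Alox5ap was not matched. Each runs 5′ to 3′ on the gene's own strand and ends at the base before that start, and capitals mark a motif match. The Ptges window lies inside the span of the gene given below, so it precedes an internal start.

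Ptgs2, chr1:150099781-150100030, + strand: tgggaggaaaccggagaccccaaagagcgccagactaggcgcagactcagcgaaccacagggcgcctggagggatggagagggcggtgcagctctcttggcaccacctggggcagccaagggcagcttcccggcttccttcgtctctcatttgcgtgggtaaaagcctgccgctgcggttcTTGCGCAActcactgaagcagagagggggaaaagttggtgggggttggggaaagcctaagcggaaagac

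Ptges, chr2:30903298-30903547, - strand: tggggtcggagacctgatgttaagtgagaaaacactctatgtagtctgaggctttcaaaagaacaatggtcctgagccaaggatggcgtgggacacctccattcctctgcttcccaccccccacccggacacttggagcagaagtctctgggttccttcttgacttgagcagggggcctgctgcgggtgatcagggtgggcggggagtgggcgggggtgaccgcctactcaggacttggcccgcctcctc

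The windows of the 9 genes were searched on both strands for STAT5 (TTCNNNGAA), AP-1 (TGANTCA), CRE (TGACGTCA), C/EBP (TTNNGCAA) and NF-kB motifs. The only match was a C/EBP motif of Ptgs2, TTGCGCAA, 69 to 62 bases before the start, with no other motif on it. Over 32851 promoter windows of 250 bases, 9.56% held a C/EBP match, 7.02% a STAT5 match, 6.75% an AP-1 match, 1.55% a CRE match and 7.25% an NF-kB match. A match describes letters in these windows and is no evidence of binding, and the absence of a match says nothing of a factor. In the Ptgs2 window 183 bases also lie in exons of Ptgs2os, a noncoding gene on the opposite strand, which had 13 counts in the 3 libraries labelled CIS-/- at 24 h, 8 in unstimulated WT, 2 in unstimulated libraries labelled CIS-/- and none in the other groups.

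Counts of the genes that changed are given first. Values below come from edgeR's quasi-likelihood test, with Benjamini-Hochberg adjustment over all 11569 genes. A gene called higher or lower has an adjusted p under 0.05, log2 fold changes are given ± SE, and levels are CPM, with mean ± SD over 3 libraries. In WT cells after 4 h, 2 of the 10 genes were higher than unstimulated and 8 lower, beside 38.1% higher and 38.2% lower of all tested genes. After 24 h 1 was higher and 8 lower in WT (40.7% and 37.7% of all). Against 4 h, 5 were higher and 4 lower at 24 h in WT (35.7% and 39.6% of all). The same 3 comparisons within the libraries labelled CIS-/- gave 1 higher and 7 lower (37.9% and 39.1%), 3 higher and 7 lower (42.1% and 42.0%), and 4 higher and 5 lower (37.8% and 37.9%). The comparisons within a genotype share their libraries, so these counts are not independent of each other.

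Between genotypes, libraries labelled CIS-/- against WT, 3 genes were higher and 3 lower when unstimulated (12.9% and 9.41% of all), 5 higher and 1 lower at 4 h (8.0% and 9.30%), and 4 higher and 6 lower at 24 h (38.2% and 38.1%). The change over time itself differed between genotypes, by an interaction test, for 1 gene in the positive and 1 in the negative direction from unstimulated to 4 h (5.32% and 10.4% of all). From unstimulated to 24 h the numbers were 3 and 6 (31.6% and 33.1%), and from 4 h to 24 h 4 and 6 (33.9% and 32.1%). At 24 h over 3 in 4 of all tested genes differed between genotypes, so the number of these genes called there is not particular to them, and the sizes and directions of single genes carry the description. The median log2 fold change of the 10 genes lay at -0.84 after 4 h and -1.02 after 24 h in WT, beside -0.02 and 0.05 for all tested genes. Between genotypes it lay at 0.04 unstimulated, 0.12 at 4 h and -0.40 at 24 h, beside -0.01, -0.02 and -0.02.

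**Figure D1:**
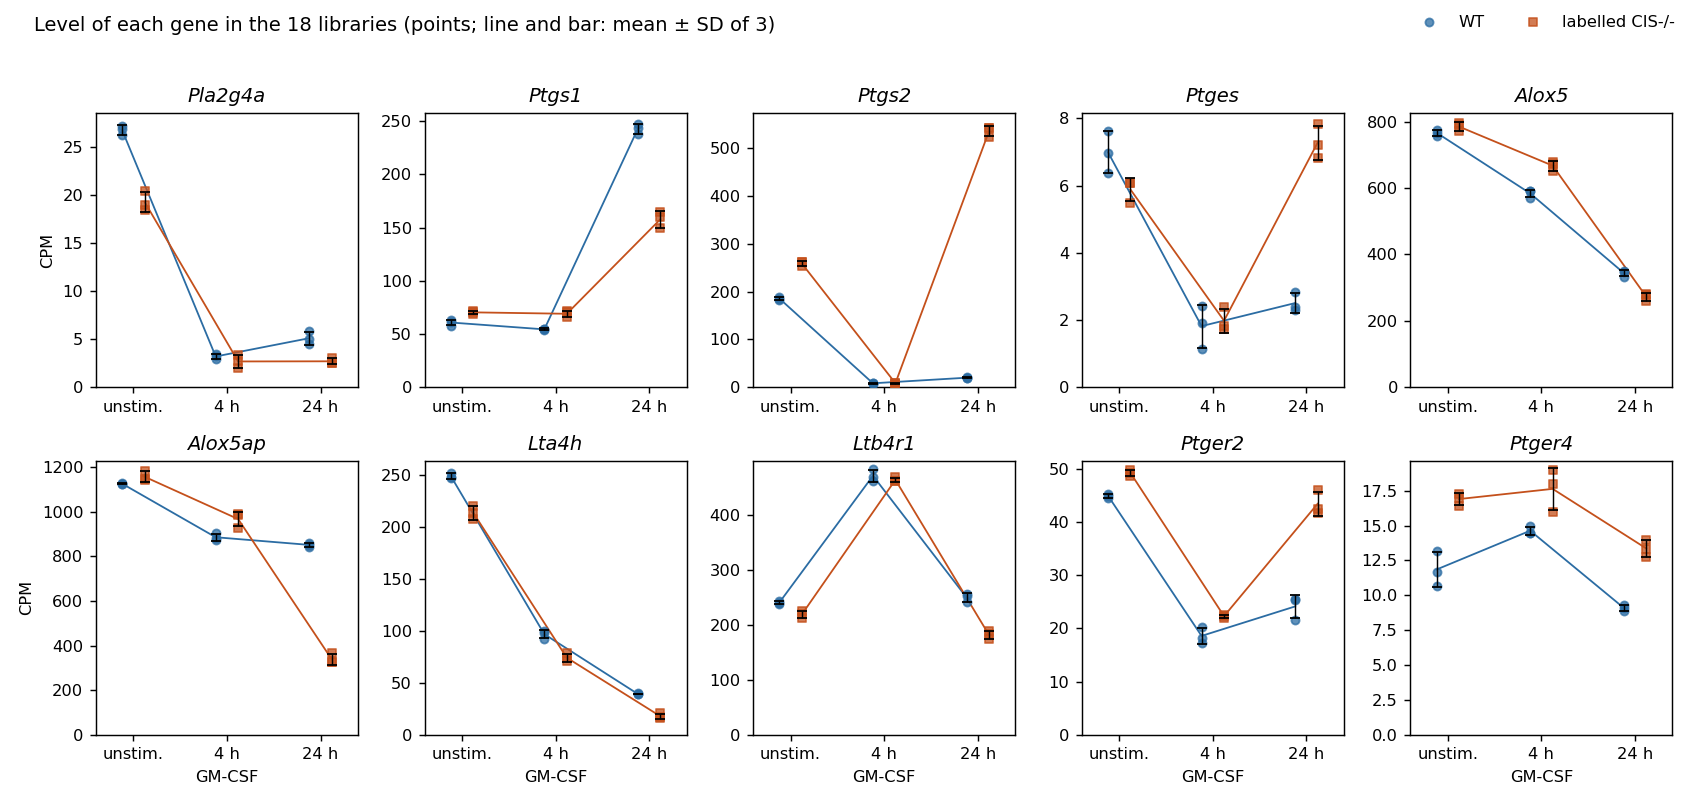
Level in CPM (vertical axes, starting at 0, scaled per gene) of the 10 genes in unstimulated cells and after 4 h and 24 h in GM-CSF (horizontal axes, categories). Points are the 18 libraries, circles for WT and squares for libraries labelled CIS-/-, and lines and bars give mean ± SD of 3. At 24 h Ptgs2 stands at 523 to 541 CPM in libraries labelled CIS-/- and at 18.7 to 21.7 CPM in WT, while Alox5ap stands at 324 to 367 against 844 to 862 CPM.

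Pla2g4a (ENSMUSG00000056220.14; mm10 chromosome 1, 149829618 to 149961290, - strand) supplies arachidonic acid to both branches of the pathway. Its level was 26.2, 26.9 and 27.2 CPM in the unstimulated WT libraries, 2.90, 3.26 and 3.46 CPM at 4 h and 4.47, 5.81 and 5.05 CPM at 24 h. Those labelled CIS-/- held 18.5, 19.0 and 20.4 CPM unstimulated, 2.0, 3.34 and 2.72 CPM at 4 h and 2.48, 2.58 and 3.05 CPM at 24 h. Both genotypes were high before culture and low after it, and the genotypes overlapped only at 4 h.

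Pla2g4a fell 8.34-fold by 4 h in WT (log2 fold change -3.06 ± 0.12, edgeR adjusted p = 9.33e-33) and 6.93-fold in libraries labelled CIS-/- (-2.79 ± 0.13, adjusted p = 7.81e-29). From 4 h to 24 h it rose in WT (0.69 ± 0.15, adjusted p = 3.95e-05), with a change of -0.01 ± 0.19 in libraries labelled CIS-/- (adjusted p = 0.974). The genotype difference was -0.47 ± 0.08 unstimulated (adjusted p = 2.94e-06) and -0.90 ± 0.15 at 24 h (adjusted p = 3.06e-07), and both interactions to 24 h were called, at -0.43 ± 0.17 from unstimulated and -0.70 ± 0.24 from 4 h. These interactions rest on 23 to 167 counts per library after GM-CSF: the first lost its call without WT replicate 2 at 24 h (adjusted p = 0.158) and without 3 other single libraries, and with DESeq2 (adjusted p = 0.058), the second without replicate 2 labelled CIS-/- at 4 h (adjusted p = 0.14).

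Ptgs1 (ENSMUSG00000047250.13; chromosome 2, 36230426 to 36252272, + strand) encodes COX-1, the cyclooxygenase usually described as constitutive. In WT it was counted at 61.6, 57.9 and 63.1 CPM unstimulated, 54.9, 55.1 and 53.4 CPM at 4 h, and 247, 244 and 238 CPM at 24 h. The level was 68.8, 71.4 and 71.0 CPM in unstimulated libraries labelled CIS-/-, 71.3, 70.3 and 65.6 CPM at 4 h, and 159.6, 164.7 and 149.4 CPM at 24 h. Every 24 h library was above every other library, and the WT ones were the highest.

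The late rise of Ptgs1 was 4.46-fold from 4 h to 24 h in WT (2.16 ± 0.04, adjusted p = 9.42e-47) and 2.28-fold in libraries labelled CIS-/- (1.19 ± 0.04, adjusted p = 5.25e-33), and the interaction was -0.97 ± 0.06 (adjusted p = 4.71e-21). Between genotypes Ptgs1 was slightly higher in libraries labelled CIS-/- unstimulated (0.21 ± 0.05, adjusted p = 0.000494) and at 4 h (0.34 ± 0.05, adjusted p = 1.66e-07), and 1.54-fold lower at 24 h (-0.63 ± 0.04, adjusted p = 1.83e-22). COX-1 is abundant in platelets, so platelet markers were read beside it. Of 5 measured, 4 were under 1 CPM on average in every group, and the summed list ran from 2.32 to 5.22 CPM over all 18 libraries, mostly Itga2b. Itga2b moved in the direction of Ptgs1 in some comparisons only. It rose by 24 h in WT, from 2.43 ± 0.50 to 3.81 ± 0.27 CPM (0.65, adjusted p = 0.000786). At 24 h Itga2b was at 2.11 ± 0.59 CPM in libraries labelled CIS-/- (-0.86 against WT, adjusted p = 5.21e-05). Its change by 24 h in those libraries was -0.34 (adjusted p = 0.136), where Ptgs1 rose (1.16, adjusted p = 2.36e-33). At 4 h its genotype difference was -0.55 (adjusted p = 0.0799), opposite in sign to that of Ptgs1. The part of Itga2b-expressing cells in the values of Ptgs1 was not tested.

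Ptgs2 (ENSMUSG00000032487.8; chromosome 1, 150100031 to 150108227, + strand) encodes COX-2, the inducible cyclooxygenase. WT libraries held 189.5, 183 and 184 CPM unstimulated, 7.01, 9.52 and 8.36 CPM at 4 h, and 18.7, 21.7 and 19.5 CPM at 24 h. Libraries labelled CIS-/- held 261, 253 and 262 CPM unstimulated, 7.57, 8.93 and 8.93 CPM at 4 h, and 523, 541 and 541 CPM at 24 h. The genotypes overlapped at 4 h and were apart before and after it, with the 3 libraries labelled CIS-/- at 24 h the highest of all 18.

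By 4 h Ptgs2 had fallen 22.2-fold in WT (-4.47 ± 0.06, adjusted p = 1.85e-55) and 30.3-fold in libraries labelled CIS-/- (-4.92 ± 0.06, adjusted p = 2.35e-58). From 4 h to 24 h it rose 2.41-fold in WT (1.27 ± 0.08, adjusted p = 4.5e-21) and 62.6-fold in libraries labelled CIS-/- (5.97 ± 0.06, adjusted p = 4.87e-63). WT cells at 24 h thus stayed 9.22-fold below their unstimulated level, whereas libraries labelled CIS-/- stood 2.07-fold above theirs. At 24 h Ptgs2 was 26.6-fold higher in libraries labelled CIS-/- than in WT (4.73 ± 0.05, adjusted p = 3.79e-63).

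The interaction of Ptgs2 from 4 h to 24 h was 4.70 ± 0.13 (adjusted p = 1.88e-39). This contrast gives the unstimulated libraries no weight. A fit to the 4 h and 24 h libraries alone changes only the filter, the scaling and the estimate of spread. It gave 4.67 (adjusted p = 1.22e-33). For the 10 genes, fits without unstimulated libraries kept every call between genotypes at each GM-CSF time and between those times. The only exception was the Ptger4 interaction (adjusted p = 0.0846). As the estimates were bound to stay close, these fits do not check the genotype label. Before GM-CSF Ptgs2 was 1.4-fold higher in libraries labelled CIS-/- (0.48 ± 0.04, adjusted p = 4.35e-16), and at 4 h the difference was 0.03 ± 0.11 with a 95% interval of -0.182 to 0.251 (adjusted p = 0.889). The early interaction, -0.45 ± 0.12 (adjusted p = 0.00324), lost its call without WT replicate 2 at 4 h (-0.33, adjusted p = 0.0855).

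Ptges (ENSMUSG00000050737.13; chromosome 2, 30889471 to 30929863, - strand), the inducible synthase of prostaglandin E2, was low throughout, with 15 to 142 counts per library. WT libraries held 6.97, 6.39 and 7.63 CPM unstimulated, 1.14, 1.90 and 2.41 CPM at 4 h, and 2.37, 2.30 and 2.85 CPM at 24 h. In libraries labelled CIS-/- Ptges was at 6.09, 6.09 and 5.48 CPM unstimulated, 1.83, 1.73 and 2.38 CPM at 4 h, and 7.21, 7.82 and 6.81 CPM at 24 h. At 24 h the groups were apart, and the range in those labelled CIS-/- overlapped that of unstimulated WT libraries.

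Ptges fell 3.86-fold by 4 h in WT (-1.95 ± 0.18, adjusted p = 4.58e-15) and 3.01-fold in libraries labelled CIS-/- (-1.59 ± 0.18, adjusted p = 1.19e-11). It then rose 3.69-fold from 4 h to 24 h in libraries labelled CIS-/- (1.88 ± 0.18, adjusted p = 1.67e-14), and at 24 h was 2.9-fold higher there than in WT (1.53 ± 0.15, adjusted p = 4.83e-14). The interaction from 4 h to 24 h was 1.43 ± 0.29 (adjusted p = 1.47e-05). The WT rise from 4 h to 24 h (0.45 ± 0.21, adjusted p = 0.0432) lost its call without WT replicate 1 at 4 h (0.21, adjusted p = 0.378), replicate 2 at 4 h or replicate 3 at 24 h. The small rise above unstimulated in libraries labelled CIS-/- (0.29 ± 0.14, adjusted p = 0.0465) lost it without any of 5 single libraries, and was 0.11 (adjusted p = 0.463) with library totals alone.

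Across the 18 libraries, Ptgs2 correlated with Ptges at Pearson's r = 0.964 and with Ptger2 at 0.952, on log2 CPM with 1 CPM added. These values describe 6 group levels of libraries that share their groups, so they carry no p. Among 5900 genes with at least 10 CPM in a group, the 3 most like Ptgs2 were Rpn1 (r = 0.99), a subunit of the oligosaccharyltransferase of the endoplasmic reticulum, Dnajb9 (r = 0.99), a chaperone of the same compartment, and Mdn1 (r = 0.985), a ribosome assembly factor. Dnajb9 went from 72.7 to 19.5 and 24.5 CPM in WT and from 95.1 to 19.4 and 164 CPM in libraries labelled CIS-/-. In all, 29 genes reached r = 0.95 with Ptgs2.

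Per length of exon, the ratio of Ptgs2 to Ptgs1 levels was 2.59 ± 0.11 in unstimulated WT cells, 0.129 ± 0.019 at 4 h and 0.0698 ± 0.0057 at 24 h. In libraries labelled CIS-/- it was 3.12 ± 0.11, 0.104 ± 0.013 and 2.88 ± 0.17. Ptgs1 was therefore the more abundant cyclooxygenase transcript in WT at 24 h, and Ptgs2 in libraries labelled CIS-/-.

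Alox5 (ENSMUSG00000025701.12; chromosome 6, 116410077 to 116461178, - strand), the gene of 5-lipoxygenase, was at 766, 776 and 756.5 CPM in unstimulated WT libraries, 589.8, 571 and 590.4 CPM at 4 h, and 351.5, 332 and 348.5 CPM at 24 h. Libraries labelled CIS-/- held 788, 795.5 and 770 CPM unstimulated, 672, 679 and 650.5 CPM at 4 h, and 282, 278 and 259 CPM at 24 h. It declined stepwise in both genotypes, which overlapped when unstimulated and not afterwards.

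By 24 h Alox5 had fallen 2.23-fold in WT (-1.16 ± 0.03, adjusted p = 5.79e-39) and 2.88-fold in libraries labelled CIS-/- (-1.53 ± 0.03, adjusted p = 5.62e-45), with an interaction of -0.37 ± 0.05 (adjusted p = 4.89e-10). Libraries labelled CIS-/- were above WT at 4 h (0.19 ± 0.03, adjusted p = 6.15e-06) and below at 24 h (-0.34 ± 0.03, adjusted p = 2.29e-13). Its early interaction of 0.16 ± 0.05 (adjusted p = 0.0108) was at an adjusted p of 0.0508 without WT replicate 2 at 4 h. The genes most like Alox5 over the 18 libraries were Nfe2 (r = 0.994), a transcription factor, Cdc14a (0.992), a phosphatase, and Vipas39 (0.991), a vesicle sorting protein.

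Alox5ap (ENSMUSG00000060063.9; chromosome 5, 149264767 to 149288153, + strand), whose membrane protein presents arachidonic acid to 5-lipoxygenase, was the most abundant of the 10 genes per length in all 6 groups. It was at 1126, 1128 and 1124 CPM in unstimulated WT libraries, 883, 871 and 903 CPM at 4 h, and 862, 844 and 849 CPM at 24 h. With the label CIS-/- it was at 1145, 1185 and 1141 CPM unstimulated, 985, 988 and 929 CPM at 4 h, and 367, 324.5 and 324 CPM at 24 h. WT libraries stayed between 844 and 903 CPM from 4 h on, and the 3 libraries labelled CIS-/- at 24 h were far below all others.

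From 4 h to 24 h Alox5ap fell 2.86-fold in libraries labelled CIS-/- (-1.52 ± 0.04, adjusted p = 1.16e-43), with a change of -0.06 ± 0.03 in WT (adjusted p = 0.121) and an interaction of -1.46 ± 0.05 (adjusted p = 3.83e-35). At 24 h it was 2.52-fold lower in libraries labelled CIS-/- than in WT (-1.33 ± 0.04, adjusted p = 6.37e-41). The ratio of Alox5ap to Alox5 per length went from 4.25 ± 0.05 to 7.16 ± 0.16 in WT from unstimulated to 24 h, and from 4.26 ± 0.06 to 3.59 ± 0.20 in libraries labelled CIS-/-. Over the 18 libraries Hsd17b11 (r = 0.996), a lipid droplet dehydrogenase, Nuak2 (0.996), a kinase, and Rassf3 (0.993) were most like Alox5ap. Gm19719, an antisense gene that overlaps its exons, was at or under 1.22 CPM in every group.

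Lta4h (ENSMUSG00000015889.8; chromosome 10, 93453411 to 93484875, + strand) makes leukotriene B4. In WT it was at 248, 248 and 252 CPM unstimulated, 99.8, 98.4 and 92.7 CPM at 4 h, and 39.0, 39.8 and 39.0 CPM at 24 h. Lta4h in libraries labelled CIS-/- was at 208, 221 and 213.5 CPM unstimulated, 73.6, 78.5 and 70.8 CPM at 4 h, and 16.7, 20.7 and 16.1 CPM at 24 h. No library of 1 genotype reached the other at any time, and each step of culture took both genotypes lower.

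Of the 10 genes Lta4h had the largest fall by 24 h in libraries labelled CIS-/-, 12.2-fold (-3.61 ± 0.06, adjusted p = 7.88e-54), beside 6.34-fold in WT (-2.67 ± 0.05, adjusted p = 3.43e-51), and the interaction was -0.94 ± 0.08 (adjusted p = 4.87e-17). The genotype difference was -0.22 ± 0.04 unstimulated (adjusted p = 1.14e-05), -0.38 ± 0.05 at 4 h (adjusted p = 5.34e-09) and -1.17 ± 0.06 at 24 h (adjusted p = 1.25e-24). Alox5 and Lta4h, which catalyse neighbouring steps, correlated at r = 0.945 over the 18 libraries. Among 5900 genes with at least 10 CPM in a group, 157 reached r = 0.95 with Alox5, so this value is not particular to Lta4h.

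**Figure D2:**
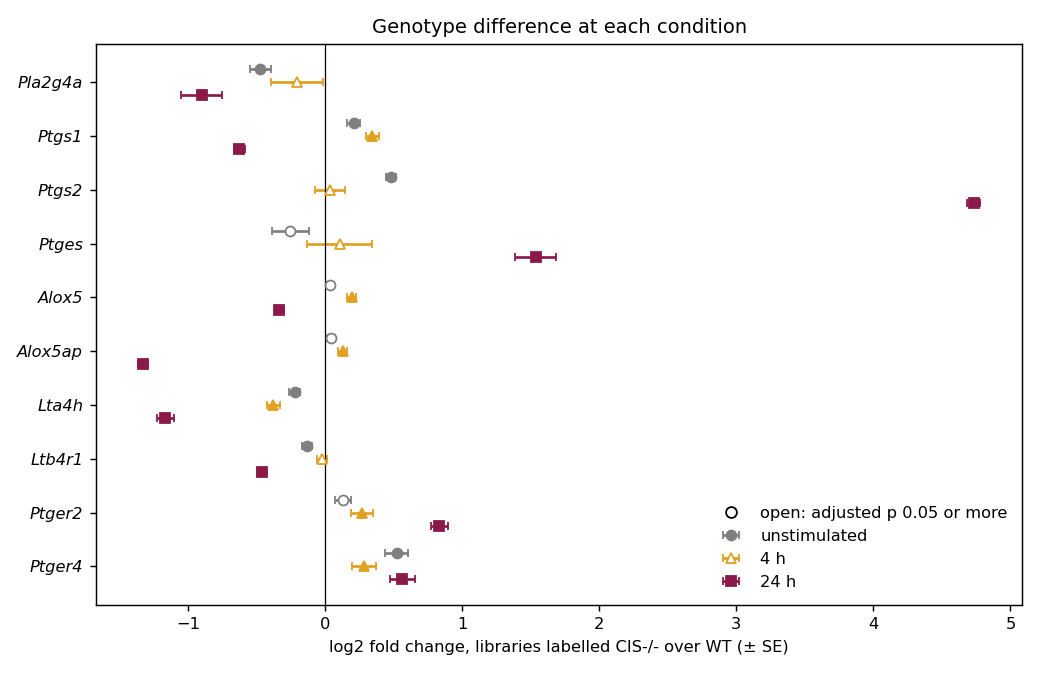
Log2 fold change of libraries labelled CIS-/- over WT (horizontal axis) for the 10 genes, unstimulated (circles), after 4 h (triangles) and after 24 h (squares), with SE as bars and open symbols where the adjusted p is 0.05 or more. At 24 h Ptgs2 lies at 4.73 and Ptges at 1.53, while Alox5ap lies at -1.33 and Lta4h at -1.17; the unstimulated and 4 h values all lie between -0.47 and 0.52.

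Ltb4r1 (ENSMUSG00000046908.5; chromosome 14, 55765962 to 55768494, + strand) encodes BLT1, the high-affinity receptor of leukotriene B4, and its time course was unlike that of the enzymes. It stood at 239 to 244 CPM in unstimulated WT libraries, 463 to 484 CPM at 4 h and 241 to 257 CPM at 24 h. The libraries labelled CIS-/- held 213 to 226 CPM, 462 to 469 CPM and 174 to 189 CPM. The genotypes overlapped only at 4 h, at the peak.

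The rise of Ltb4r1 by 4 h was 1.96-fold in WT (0.97 ± 0.04, adjusted p = 9.02e-34) and 2.12-fold in libraries labelled CIS-/- (1.08 ± 0.04, adjusted p = 4.37e-36). At 4 h the genotype difference was -0.02 ± 0.03, with a 95% interval of -0.091 to 0.046 (adjusted p = 0.746). At 24 h Ltb4r1 was 1.38-fold lower in libraries labelled CIS-/- (-0.46 ± 0.04, adjusted p = 7.21e-18), and the interaction from 4 h was -0.44 ± 0.05 (adjusted p = 1.18e-11). In WT its difference between 24 h and unstimulated was 0.05 ± 0.04 (adjusted p = 0.153), and 0.36 (adjusted p = 3.55e-14) when libraries were scaled by their totals alone.

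Ptger2 (ENSMUSG00000037759.6; chromosome 14, 44988195 to 45003820, + strand) encodes EP2, a cAMP-coupled receptor of prostaglandin E2. It was at 44.6 to 45.3 CPM in unstimulated WT libraries, 17.3 to 20.3 CPM at 4 h and 21.6 to 25.6 CPM at 24 h. It was at 48.7 to 49.9, 22.1 to 22.6 and 41.7 to 46.1 CPM in libraries labelled CIS-/-. Like Ptgs2 and Ptges it was low at 4 h in both genotypes and high again at 24 h in libraries labelled CIS-/-.

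Ptger2 fell 2.43-fold by 4 h in WT (-1.28 ± 0.07, adjusted p = 2.92e-25) and 2.21-fold in libraries labelled CIS-/- (-1.14 ± 0.07, adjusted p = 7.7e-24), and at 24 h was 1.78-fold higher in libraries labelled CIS-/- than in WT (0.83 ± 0.06, adjusted p = 4.16e-19). The interaction from 4 h to 24 h was 0.57 ± 0.10 (adjusted p = 1.36e-06), and 0.04 (adjusted p = 0.699) with library totals alone. The difference at 4 h (0.27 ± 0.08, adjusted p = 0.011) was at an adjusted p of 0.107 without WT replicate 2. Gm17173, an antisense gene overlapping Ptger2, was at 5.69, 5.26 and 2.39 CPM in WT libraries and 7.47, 5.40 and 5.04 CPM in those labelled CIS-/- at the 3 times. The sources used here do not say whether counting used the strand, so how reads of the overlap were assigned is not known.

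Ptger4 (ENSMUSG00000039942.15; chromosome 15, 5206661 to 5244187, - strand), the gene of EP4, another cAMP-coupled receptor of prostaglandin E2, was low, and no change of it within a genotype was larger than 0.68 on the log2 scale in either direction. WT libraries held 10.7 to 13.2 CPM unstimulated, 14.5 to 14.9 CPM at 4 h and 8.88 to 9.29 CPM at 24 h. Libraries labelled CIS-/- held 16.4 to 17.3, 16.0 to 18.9 and 12.8 to 14.0 CPM, above the WT libraries at each time.

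The genotype difference of Ptger4 was 0.52 ± 0.09 unstimulated (adjusted p = 2.4e-06), 0.28 ± 0.09 at 4 h (adjusted p = 0.0164) and 0.56 ± 0.09 at 24 h (adjusted p = 1.21e-07). With library totals alone the 24 h difference was 0.03 (adjusted p = 0.771), and the 4 h call was lost without any of 3 single libraries, with an adjusted p of 0.18 without replicate 2 labelled CIS-/- at 4 h. Its exons overlap those of Ttc33 on the opposite strand, which had 7037 counts in all against 3939 of Ptger4. Ttc33 was at 8.33, 32.4 and 21.8 CPM in WT libraries and 8.13, 34.1 and 45.7 CPM in those labelled CIS-/-. Like Ptger4, Ttc33 was higher with that label at 24 h, but unlike Ptger4 it was not higher when unstimulated. The part of reads from the overlap was not tested.

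The scaling matters at 24 h for all 10 genes. With library totals in place of TMM factors, the median of all tested genes between genotypes at 24 h moved from -0.02 to -0.55, and 2558 genes were called higher and 6999 lower in place of 4416 and 4411. Changes are therefore relative to the bulk of genes. Under those totals Ptgs2 was at 4.20, Ptges at 1.0, Ptger2 at 0.30, Ptgs1 at -1.16, Alox5 at -0.87, Alox5ap at -1.86, Lta4h at -1.70, Ltb4r1 at -0.995 and Pla2g4a at -1.44. All of these kept their direction and their call, and Ptger4 lost its call. For WT from 4 h to 24 h the median of all genes went from -0.04 to 0.45, and Alox5ap from -0.06 to 0.43 (adjusted p = 8.56e-18). The split of all calls into higher and lower also moved elsewhere with library totals. In WT it went from 4707 and 4361 to 6352 and 3164 between unstimulated and 24 h, and from 4128 and 4586 to 6763 and 2506 between 4 h and 24 h. Between unstimulated genotypes it went from 1489 and 1089 to 1168 and 1660. For the interactions it went from 3658 and 3831 to 2028 and 6178 from unstimulated to 24 h, and from 3922 and 3711 to 2247 and 6154 from 4 h to 24 h. The 10 genes then split into 2 higher and 7 lower in WT by 24 h, 6 and 4 in WT from 4 h, and 3 and 3 between unstimulated genotypes. Their interactions split into 3 positive and 7 negative from unstimulated to 24 h, and 2 and 6 from 4 h.

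Levels were compared between genes per kilobase of exon. Unstimulated WT cells held Alox5ap at 793 ± 1, Alox5 at 187 ± 2, Ltb4r1 at 173 ± 2, Lta4h at 40.9 ± 0.4, Ptgs2 at 40.5 ± 0.8, Ptgs1 at 15.7 ± 0.7, Ptger2 at 8.66 ± 0.07, Pla2g4a at 4.19 ± 0.08, Ptger4 at 1.78 ± 0.19 and Ptges at 1.78 ± 0.16 CPM per kb. In that order only Lta4h and Ptgs2, and Ptger4 and Ptges, overlapped with their neighbour. The leukotriene genes Alox5ap, Alox5 and Ltb4r1 held the first 3 places in 5 of the 6 groups. In libraries labelled CIS-/- at 24 h the order was Alox5ap (238 ± 17), Ltb4r1 (131 ± 5) and then Ptgs2 (117 ± 2), ahead of Alox5 (66.5 ± 3.0), and Lta4h had gone to the 7th place (2.92 ± 0.41).

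**Figure D3:**
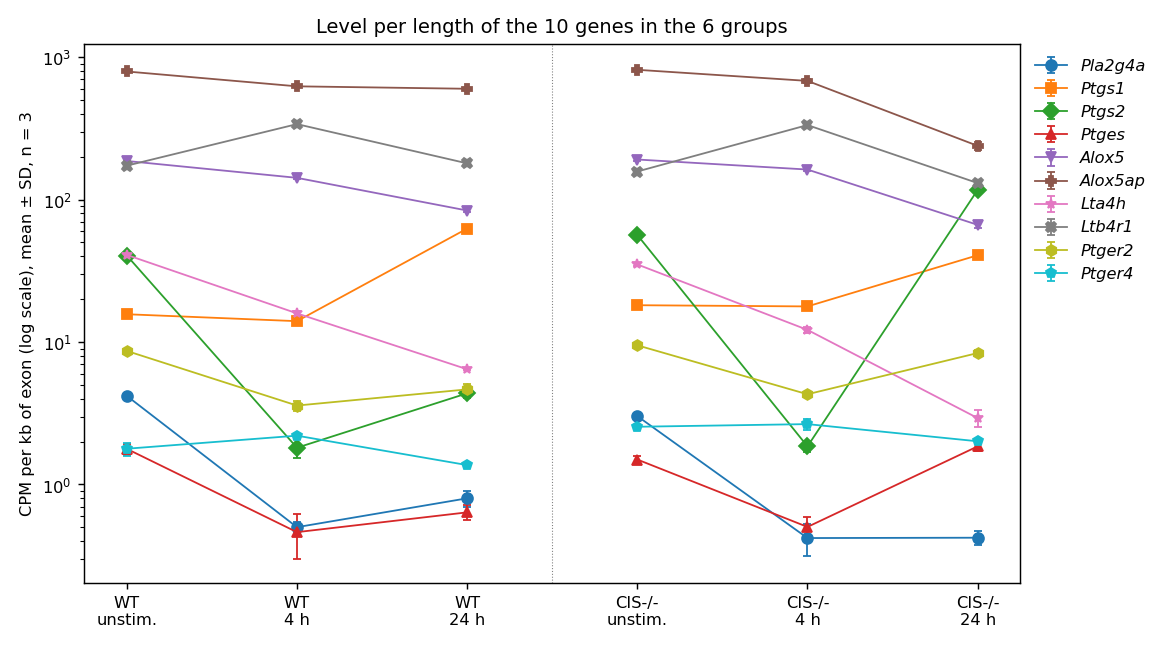
Mean level of the 10 genes in CPM per kilobase of exon (vertical axis, log scale; bars ± SD, n = 3) in the 6 groups (horizontal axis). Ptgs2 goes from 40.5 to 1.81 and 4.37 in WT and from 56.5 to 1.85 and 117 in libraries labelled CIS-/-, while Alox5ap leads in all 6 groups.

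Other genes of the pathway were read from 6 lists with 63 measured members, of which 35 were tested. Between genotypes at 24 h, 14 of these 35 were higher and 15 lower in libraries labelled CIS-/-, close to the 38.2% and 38.1% of all tested genes, with a median of 0.00 beside -0.02 for all genes. With library totals alone, the higher calls of Acsl3, Mgll, Lpcat2 and Ptges3 were lost or turned lower; Acsl3 is named for this after its values were seen. Of the list of other phospholipases and enzymes of arachidonic acid supply, 4 were tested, 2 higher and 2 lower. Pla2g7, the platelet-activating factor acetylhydrolase, went from 306 ± 12 to 124 ± 8 CPM (-1.30 ± 0.04, adjusted p = 1.001e-38), and Elovl5, a fatty acid elongase, from 20.5 ± 1.0 to 37.9 ± 1.6 CPM (0.89 ± 0.06).

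Of 10 tested genes that activate arachidonic acid or return it to membranes, 4 were higher and 5 lower, beside 38.2% and 38.1% of all tested genes. Acsl4, the ligase that prefers arachidonic acid, was at 44.6 ± 0.5 CPM in WT libraries and 199.6 ± 9.7 CPM in those labelled CIS-/- (2.16 ± 0.05, adjusted p = 5.74e-46), and Acsl1 at 171 ± 1 and 431 ± 4 CPM (1.33 ± 0.03, adjusted p = 5.14e-42). Lpcat4, a reacylating enzyme, was at 11.2 ± 0.5 and 3.30 ± 0.63 CPM (-1.82 ± 0.12, adjusted p = 1.35e-20). Lpcat2 was called higher (0.31 ± 0.03) but was lower, at -0.23, with library totals alone (adjusted p = 1.93e-08).

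Of 5 tested prostanoid synthases other than Ptges, 2 were higher and 2 lower, beside 38.2% and 38.1% of all tested genes. Ptges3 was among the higher (0.40) but was at -0.13 with library totals alone (edgeR adjusted p = 0.0492). Tbxas1, the thromboxane synthase, fed like Ptges by the cyclooxygenases, was at 100.6 ± 3.5 and 48.7 ± 4.1 CPM (-1.06 ± 0.05, adjusted p = 5.88e-28), the direction of Ptgs1. Hpgds, which makes prostaglandin D2, was at 1.43 ± 0.09 and 5.08 ± 0.78 CPM (1.82 ± 0.19, adjusted p = 2.22e-13). Mast cells are known for Hpgds, and of 6 mast cell and basophil markers 5 were under 1 CPM on average in every group. Kit was the exception, at 187 ± 2 CPM in WT libraries at 24 h and 366 ± 21 CPM in those labelled CIS-/-. The part of mast cells or basophils in the values of Hpgds was not tested.

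Among 3 tested genes of prostanoid transport and inactivation, Ptgr1, a reductase that inactivates prostaglandins and leukotriene B4, was at 1.84 ± 0.17 and 19.1 ± 1.3 CPM at 24 h (3.38 ± 0.13, adjusted p = 3.59e-32). Abcc4, an exporter of prostaglandin E2, was at 6.88 ± 0.30 and 2.37 ± 0.50 CPM (-1.57 ± 0.14, adjusted p = 1.76e-15). Of 5 tested genes of leukotriene metabolism 1 was higher and 4 were lower, beside 38.2% and 38.1% of all tested genes. Cyp4f18, which oxidises leukotriene B4 in mouse neutrophils, was at 384 ± 7 and 122 ± 7 CPM (-1.66 ± 0.04, adjusted p = 2.40e-44), and Ggt5, which cleaves leukotriene C4, at 200 ± 3 and 100.6 ± 6.2 CPM (adjusted p = 3.36e-31).

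Of 8 other tested lipid mediator receptors, 4 were higher and 1 lower, beside 38.2% and 38.1% of all tested genes. Ptafr, the receptor of platelet-activating factor, was at 676 ± 17 and 1769 ± 16 CPM (1.39 ± 0.03, adjusted p = 4.69e-45) and Ptgir, the prostacyclin receptor, at 3.42 ± 0.63 and 28.1 ± 1.8 CPM (3.05 ± 0.10, adjusted p = 2.44e-36). Ptgir had been at 39.1 ± 1.3 CPM in unstimulated WT cells and 33.2 ± 0.8 CPM in unstimulated libraries labelled CIS-/-, so like Ptgs2, Ptges and Ptger2 it was low at 4 h, at 9.06 ± 1.20 and 6.18 ± 0.64 CPM. Ltb4r2, the low-affinity leukotriene B4 receptor, named for 24 h after its values were seen, was at 9.82 ± 1.26 and 30.9 ± 1.9 CPM (1.65 ± 0.08, adjusted p = 2.69e-26), the opposite direction to Ltb4r1.

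**Figure D4:**
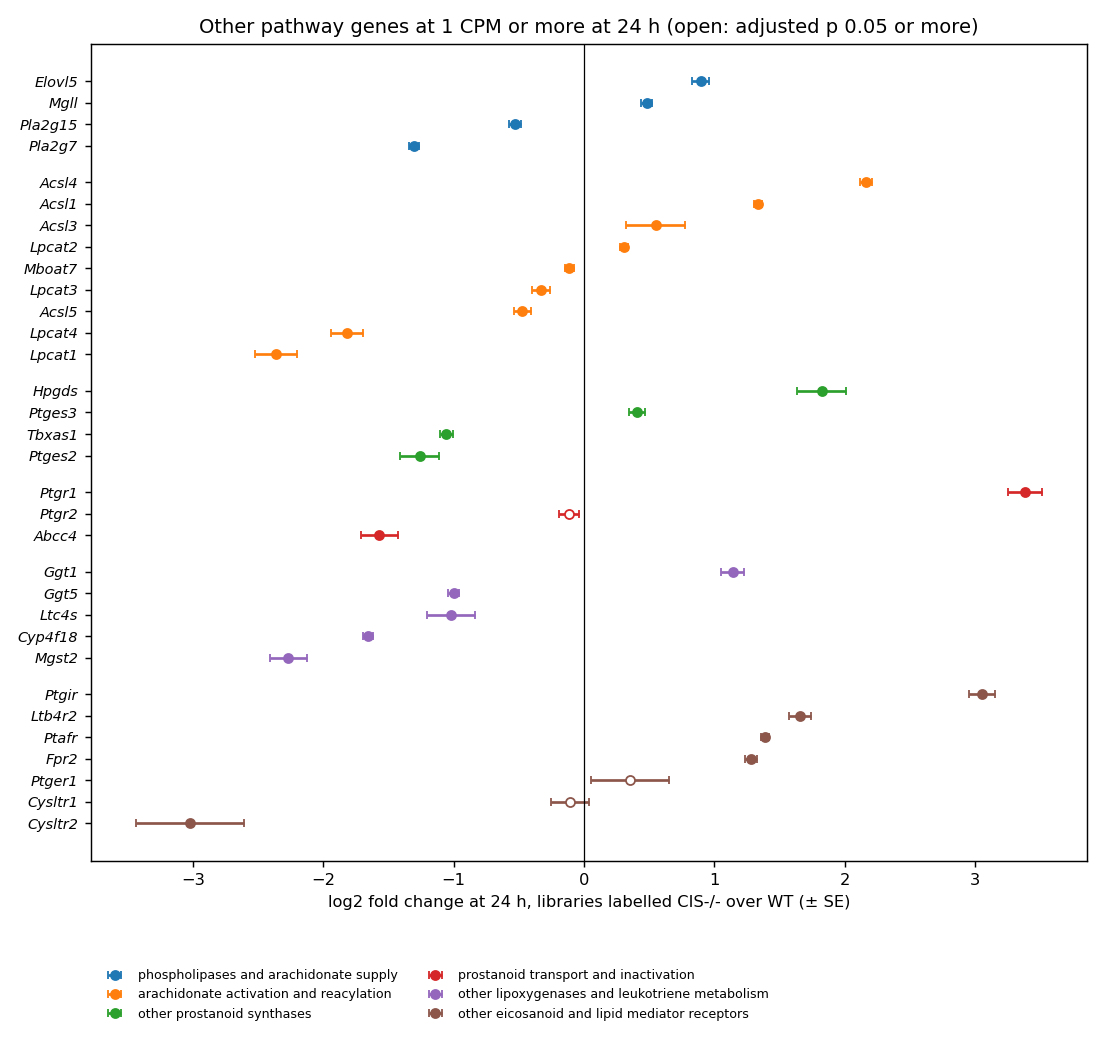
Log2 fold change at 24 h of libraries labelled CIS-/- over WT (horizontal axis, ± SE) of the other pathway genes with at least 1 CPM in a 24 h group, coloured by list, with open symbols where the adjusted p is 0.05 or more. Ptgr1 (3.38), Ptgir (3.05) and Acsl4 (2.16) lie farthest to the right, and Mgst2 (-2.27) and Lpcat4 (-1.82) are among those to the left.

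Over time in WT cells, 11 of the 35 other genes rose and 19 fell by 4 h (38.1% and 38.2% of all tested genes), and 14 rose and 17 fell by 24 h (40.7% and 37.7%). In the libraries labelled CIS-/-, 12 rose and 18 fell by 4 h (37.9% and 39.1%), and 14 rose and 15 fell by 24 h (42.1% and 42.0%). By 4 h in WT, Ptafr went from 238 ± 2 to 1738 ± 27 CPM and Pla2g15, a lysosomal phospholipase, from 9.27 ± 1.28 to 109.7 ± 5.6 CPM. Abcc4 went from 33.7 ± 1.4 to 5.13 ± 0.36 CPM and Mgst2 from 62.4 ± 2.8 to 20.6 ± 2.9 CPM.

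Markers of other cells moved with some of these groups. The monocyte and macrophage list summed to 80.6 to 86.0 CPM in WT at 24 h and 462 to 555 CPM in libraries labelled CIS-/-. Of the latter sum 97.8% was Cd68. Of the 7 genes measured, 5 were under 1 CPM on average in both groups, Cx3cr1, C1qa and C1qb among them. Csf1r and Adgre1 were on this list but matched no named ID, so their levels are missing here. Fcgr1 was also higher in libraries labelled CIS-/- at 24 h (0.51, adjusted p = 8.55e-05), and Ccr2 was not called (-0.92, adjusted p = 0.0628). Csf3r, a neutrophil marker, was at 5900 ± 64 CPM in WT libraries at 24 h and 2326 ± 85 CPM in those labelled CIS-/-, Cxcr2 at 1835 ± 65 and 867 ± 3 CPM, and S100a9 at 9660 ± 198 and 13645 ± 1447 CPM. Of the 9 neutrophil markers 5 were called higher and 3 lower with the label CIS-/- at 24 h, beside 38.2% and 38.1% of all tested genes. Their sum was 26831 to 31382 CPM in those libraries and 25856 to 27223 CPM in WT. The erythroid list summed to 32.2 to 34.6 CPM in unstimulated WT and 88.6 to 89.9 CPM in unstimulated libraries labelled CIS-/-, while the eosinophil list summed to 36.8 to 40.4 and 36.4 to 37.1 CPM. Within that list Ccr3 was at 1.60 ± 0.71 CPM in unstimulated WT and 10.2 ± 0.7 CPM in those labelled CIS-/-, and Ear2 differed the other way (-0.62, adjusted p = 2.62e-07). The part of these differences in the genotype values of the 10 genes was not tested.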

How the data were processed

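The deposited table holds raw counts of reads for each Ensembl ID. The submitters' processing notes name Trimmomatic, STAR, featureCounts and mm10; the sources used here do not give versions, annotation release or strand setting. Libraries came from a directional kit, per the labels' protocols. Their treatment text gives 42h where titles and extraction text give 24 h; 24 h was used. GENCODE mouse release M21 gave names, coordinates and exon lengths for 50604 of 53379 IDs; the rest, 13.5% of counts, entered the fit unnamed. The 10 genes, the gene lists and the rule for naming others (per list and comparison the 2 called genes of lowest adjusted p that reached 1 CPM in a compared group, plus list genes at 20 CPM or more on average; the 3 genes most like each of 4 members) were chosen with earlier results of these data known.

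The test was that of edgeR 4.0.16 (R 4.3.3): filterByExpr by group, TMM factors and 1 robust quasi-likelihood fit of the 6 groups, with 12 two-sided contrasts and Benjamini-Hochberg adjustment. The common biological coefficient of variation was 3.3%. The SE is the log2 fold change divided by the square root of F. Replicates were compared for copied counts (chi-square per degree of freedom 1.29 to 8.46 over 18 pairs, so none). This comparison cannot tell repeat libraries of the same RNA from separate samples. The fit was tested on simulated data. Alternatives were RLE factors, library totals alone, DESeq2 1.42.0, limma-voom 3.58.1, no filter, a filter of 50 counts in 3 libraries, a non-robust prior, a replicate block, the compared groups only and each library left out. Likeness is Pearson's r of log2(CPM + 1). Csf1r, Adgre1, Retnlg, Gp1bb, Pla2g6, Fads1, Fads2, Cbr1 and Abcc1 were on the lists but matched no named ID, so they were not analysed. They may be among the unnamed IDs. The labels used here name no batch.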

Additional observations from a re-analysis of the deposited data

Results flagged for a closer look

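The change over time differed between genotypes for all 10 genes in at least 1 interval, each by the edgeR interaction test with an adjusted p under 0.05. The only call of Ptger4 and each call of Pla2g4a were lost under at least 1 alternative. Of all tested genes 31.6% had a positive and 33.1% a negative interaction from unstimulated to 24 h, and 33.9% and 32.1% from 4 h to 24 h, so the number called is not particular to these genes. Values are the log2 change in libraries labelled CIS-/- minus that in WT. Intervals share libraries, so values of 1 gene are not independent.

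Prostaglandin genes: Ptgs2 was at -0.45 from unstimulated to 4 h, 4.25 from unstimulated to 24 h and 4.70 from 4 h to 24 h. Ptges was at 1.79 from unstimulated to 24 h and 1.43 from 4 h to 24 h. Ptgs1 went the other way, at -0.83 and -0.97 over the same intervals. Among the receptors, Ptger2 was at 0.70 and 0.57, the latter 0.04 with library totals alone (adjusted p = 0.699). Ptger4 was at 0.28 from 4 h to 24 h (adjusted p = 0.0448), and at -0.24 with library totals alone (adjusted p = 0.077).

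Leukotriene genes and the phospholipase had negative values to 24 h. Alox5ap was at -1.37 from unstimulated and -1.46 from 4 h, Lta4h at -0.94 and -0.79, and Ltb4r1 at -0.33 and -0.44. Alox5 was at 0.16 from unstimulated to 4 h, -0.37 from unstimulated to 24 h and -0.53 from 4 h to 24 h. Pla2g4a was at -0.43 from unstimulated to 24 h and -0.70 from 4 h to 24 h.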

How the results depend on the processing

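Over 120 results (10 genes in 12 comparisons) and their alternatives, 1980 values were computed; 1909 kept their direction and side of the threshold, 42 lost the call, 10 gained it and 19 turned the direction. The number of genes called moved by over 1.5 times only for the early interaction (unstimulated to 4 h): 5 in place of 2 with the compared groups only, and 0 to 3 when each library was left out, 0 without WT replicate 2 at 4 h. With library totals alone the direction turned for Alox5 (-0.0063) and Alox5ap (-0.0013) between unstimulated genotypes, Alox5ap in WT from 4 h to 24 h (0.43), and Ptger4 in libraries labelled CIS-/- by 4 h (-0.0739) and in the interactions to 24 h from 4 h (-0.2415) and from unstimulated (-0.4506). The latter also turned when WT unstimulated replicate 2 (-0.0381) or replicate 3 labelled CIS-/- at 24 h (-0.0004) was left out, with a range of -0.0381 to 0.1150 over all single libraries. The change of Pla2g4a in libraries labelled CIS-/- from 4 h to 24 h, near 0, was at 0.0093 with RLE factors, 0.0105 with DESeq2, 0.0129 with limma-voom, and -0.1621 to 0.2229 when each library was left out, above 0 without replicate 2 labelled CIS-/- at 4 h and without replicates 1 (0.0569) and 2 (0.0274) at 24 h. Leaving out 1 library also turned the 4 h genotype difference of Ptges (range -0.1348 to 0.3335) and Ptgs2 (-0.0745 to 0.1525) and the 4 h change of Ptgs1 in libraries labelled CIS-/- (-0.0474 to 0.0063); none of these was called in the main fit or then. The Ptger4 interaction from 4 h to 24 h (0.28, adjusted p = 0.0448) lost its call with DESeq2 (0.0704), with no filter (0.197), with the compared groups only (0.0846) and without 9 of 12 single libraries. The rise of Ptges from unstimulated to 24 h in libraries labelled CIS-/- lost its call with library totals alone (0.1084), DESeq2 (adjusted p = 0.0586) and no filter (adjusted p = 0.0673), its WT change from 4 h to 24 h with DESeq2 (adjusted p = 0.0595) and no filter (adjusted p = 0.06), and the Pla2g4a interaction from unstimulated to 24 h with DESeq2 (adjusted p = 0.058). The causes were not tested. Same-numbered libraries did not deviate together: the correlation over 45 such pairs had a median of -0.0105 (range -0.0775 to 0.065), and 3 libraries correlated best with their own number. With the replicate number as a block, Ptges in libraries labelled CIS-/- from unstimulated to 24 h was at 0.28 (adjusted p = 0.0586), and no other call of the 10 genes changed. Depth limits Ptges and Pla2g4a most, with as few as 15 and 23 counts in a library.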
